A study of Sus scrofa with 6 samples.

Results

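The genes described here are the metalloproteases MMP2, MMP9, MMP12, MMP14, ADAM28 and ADAMTS1 and their tissue inhibitors TIMP1, TIMP3 and TIMP4, in pig abdominal aorta with and without atherosclerotic lesions. They were chosen by symbol from a list of 10 names. Of the 22861 genes in the deposited table, 9 carried one of these symbols, and TIMP2 is not analysed here. The level of 7 was high enough for a test, and MMP12 and TIMP4 fell below the minimum described under the processing.

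RNA sequencing was done on 6 pools of RNA from whole abdominal aortic tissue. The 3 lesion pools (replicates 1, 2 and 3) came from Wisconsin Miniature Swine with familial hypercholesterolaemia (WMS FH), an inherited excess of blood cholesterol, and carried atherosclerotic lesions. The 3 lesion-free pools (replicates 4, 5 and 6) came from normal swine of the same breed (WMS normal). RNA of 11 animals per group was combined, so a pool is the replicate, and p-values measure the spread between pools rather than between animals. Which animals went into which pool, and their age, sex, diet and mutation, are not given in the labels used here. All lesion pools were of one swine line and all lesion-free pools of the other, so lesions and line cannot be told apart.

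Lesion replicate 1 was the shallowest pool, with 4650176 counts, and lesion replicate 3 the deepest, with 11442433, so low genes are measured least precisely in the former. Levels are given as counts-per-million values (CPM) after scaling of the libraries. A count of 3, the limit that a count of 0 allows, equals 0.577 CPM in lesion replicate 1 and 0.268 to 0.359 CPM in the other pools, for counting error only. The labelled tissue carried its own markers. The summed level of 11 matched contractile smooth muscle genes was 47114 to 65250.2 CPM in lesion pools and 99490.2 to 115675 CPM in lesion-free pools. In whole tissue, fewer cells of a type and less RNA per cell cannot be told apart.

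Matrix metalloproteinases (MMPs) are zinc enzymes that are made as inactive precursors and cut collagens, elastin and other matrix proteins once the propeptide is removed. ADAM proteases are membrane-anchored relatives that shed proteins from the cell surface, and ADAMTS proteases are secreted relatives that cut proteoglycans and other matrix proteins. TIMPs bind the active site of these enzymes and block it. In the arterial wall, smooth muscle cells make MMP2 and TIMPs in the healthy state, and macrophages of a plaque are a known source of MMP9 and other MMPs.

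ADAM28 was higher in lesion pools, and it was the one tested gene of the 7 that passed the threshold of 0.05 on the adjusted p. None passed as lower. For comparison, 0.968% of all 11673 tested genes were called higher and 0.0771% lower. MMP9 had the larger fold but did not pass. MMP14, the membrane-bound activator of MMP2, had a lesion mean 1.59 times the lesion-free mean and did not pass. The MMP2 groups overlapped, and ADAMTS1, TIMP1 and TIMP3 had lesion means below the lesion-free means without passing. The median log2 fold of the 7 was -0.12, against 0.00 for all tested genes after rounding of -0.0022. In 3 of the 7 every lesion pool lay above every lesion-free pool, as it did in 10.5% of all tested genes, and in 0 of the 7 every lesion pool lay below, as it did in 8.97% (19.4% in either direction). The names were put together with earlier results of these data known, so these counts describe the 7 genes and support nothing further.

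**Figure D1:**
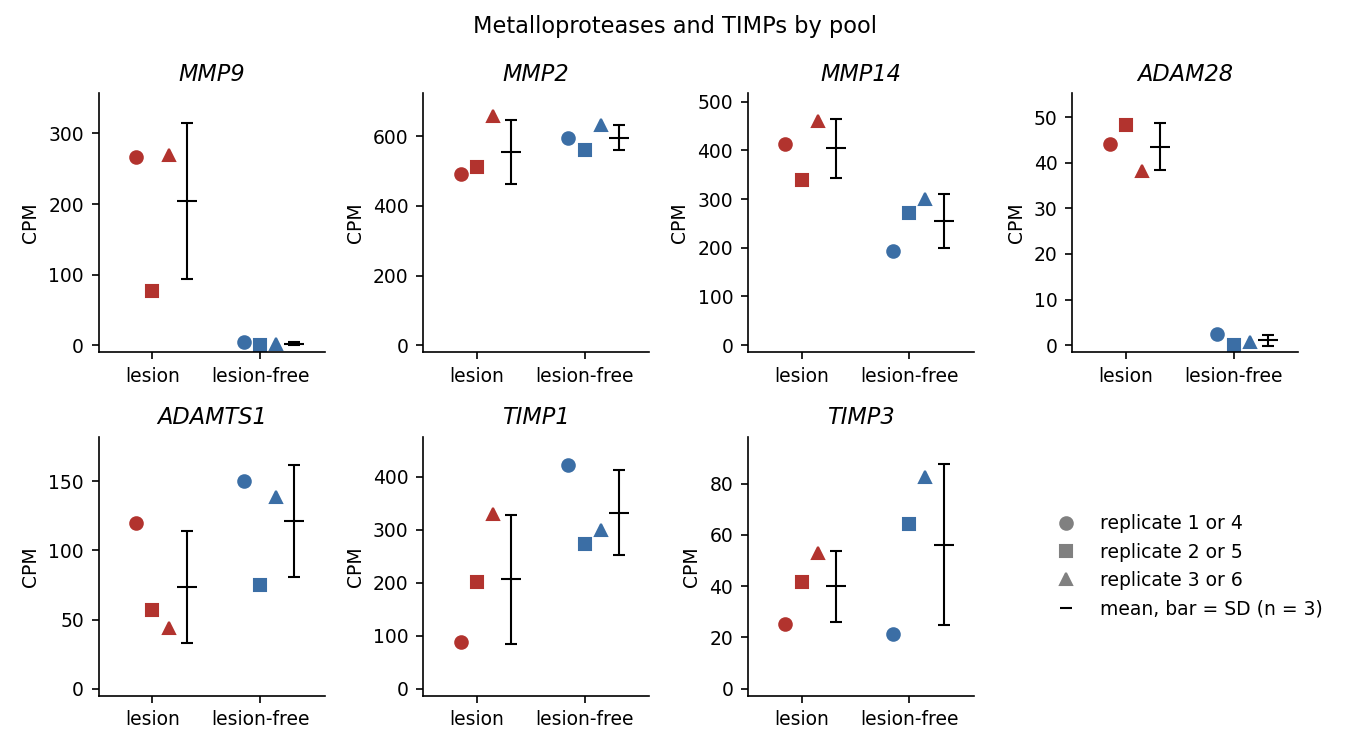
Level of each of the 7 tested genes in CPM (vertical axis, linear, from 0) in the 3 lesion pools (red) and the 3 lesion-free pools (blue). Black bars give the mean and SD over 3 pools. MMP9, MMP14 and ADAM28 show no overlap between groups, and lesion replicate 2 is the low point of MMP9.

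The gelatinases were MMP9 and MMP2, which digest denatured collagen, basement membrane collagen and elastin. MMP9 had 1387, 868 and 2952 counts in lesion replicates 1, 2 and 3 and 36, 0 and 21 in lesion-free replicates 4, 5 and 6. In CPM these were 267, 77.5 and 269 against 3.88, 0 and 2.13. All lesion pools were far above all lesion-free pools, and lesion replicate 2 stood well below the other lesion pools. The group means were 204 ± 110.0 and 2.00 ± 1.94 CPM (SD, n = 3 each), a ratio of 102. The fitted log2 fold was 7.66 (SE 2.06, 95% interval 3.14 to 12.19), with a limma adjusted p of 0.151. By fitted fold MMP9 ranked 7 of 11673 genes, and by p it ranked 251. Its standard error was larger than that of 98.3% of tested genes. Because 1 lesion-free pool had a count of 0, the fitted fold depends on the 0.5 added to each count before the log. Without lesion-free replicate 5 the log2 fold was 5.93 (adjusted p = 0.0682 with limma).

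The MMP9 call turned on the setting. Without lesion replicate 2 it passed (limma adjusted p = 0.00187), and without lesion-free replicate 4 it was farthest from passing (limma adjusted p = 0.581). Leaving out the lowest lesion pool of a gene raises its lesion mean. Without lesion replicate 2, 150 of all 11673 tested genes were called higher, against 113 in the reported fit. On log2(CPM + 1) without precision weights the limma adjusted p was 0.000351, with a log2 fold of 6.17. Over the 15 settings run, 4 put MMP9 past the threshold, and its log2 fold lay between 5.93 and 8.78 in all of them.

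MMP2, the gelatinase that smooth muscle cells and fibroblasts make without stimulation, was measured at 491, 512 and 659 CPM in lesion replicates 1, 2 and 3. The lesion-free replicates 4, 5 and 6 had 595, 560.4 and 632 CPM. The groups overlapped, and lesion replicate 3 was the highest pool of all. Means were 554 ± 91.6 and 596 ± 36.1 CPM (SD, n = 3 each). The fitted log2 fold of -0.12 (SE 0.26) had a 95% interval of -0.67 to 0.43 (limma adjusted p = 0.901), so changes of the size seen in MMP9 or ADAM28 lie outside it. With library totals in place of scaled libraries the sign turned, to 0.056.

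MMP12, the macrophage elastase, was close to the detection limit in every pool. It had 0, 5 and 1 counts in lesion replicates 1, 2 and 3 and 7, 0 and 3 in lesion-free replicates 4, 5 and 6. With 16 counts in all, a difference between groups was not detectable at this depth. Other genes of macrophages were abundant in the same lesion pools, as described below.

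MMP14, the membrane-type MMP that cuts fibrillar collagen and activates the MMP2 precursor, stood at 413, 339 and 459.7 CPM in lesion replicates 1, 2 and 3. It stood at 193, 271 and 299 CPM in lesion-free replicates 4, 5 and 6. The lowest lesion pool was above the highest lesion-free pool by less than the SD within either group. Means were 404 ± 60.7 and 255 ± 55.2 CPM (SD, n = 3 each), a ratio of 1.59. The log2 fold was 0.68 (SE 0.27, 95% interval 0.10 to 1.26), with an unadjusted p of 0.0242 and a limma adjusted p of 0.372. Over the 15 settings the log2 fold lay between 0.49 and 0.85, and none passed.

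ADAM28, a metalloprotease with a disintegrin domain known from lymphocytes and other leukocytes, had 229, 542 and 418 counts in lesion replicates 1, 2 and 3. It had 23, 1 and 7 counts in lesion-free replicates 4, 5 and 6. In CPM these were 44.0, 48.4 and 38.1 against 2.48, 0.120 and 0.711. The lesion pools lay close together, while the lesion-free pools, at few counts, were spread over a wide ratio. Means were 43.5 ± 5.14 and 1.10 ± 1.23 CPM (SD, n = 3 each), a ratio of 39.4. The fitted log2 fold was 5.90 (SE 1.24, 95% interval 3.25 to 8.54), with a limma adjusted p of 0.0321, and it ranked 98 of 11673 genes by p.

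The ADAM28 call depended on the lesion-free pools. It held without any 1 lesion pool, with a limma adjusted p of up to 0.0449. Leaving out a lesion-free pool ended it each time. The log2 fold was then 6.81 without replicate 4 (limma adjusted p = 0.193), 4.99 without replicate 5 (limma adjusted p = 0.0923) and 5.94 without replicate 6 (limma adjusted p = 0.203). Over the 15 settings 11 put it past the threshold.

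**Figure D2:**
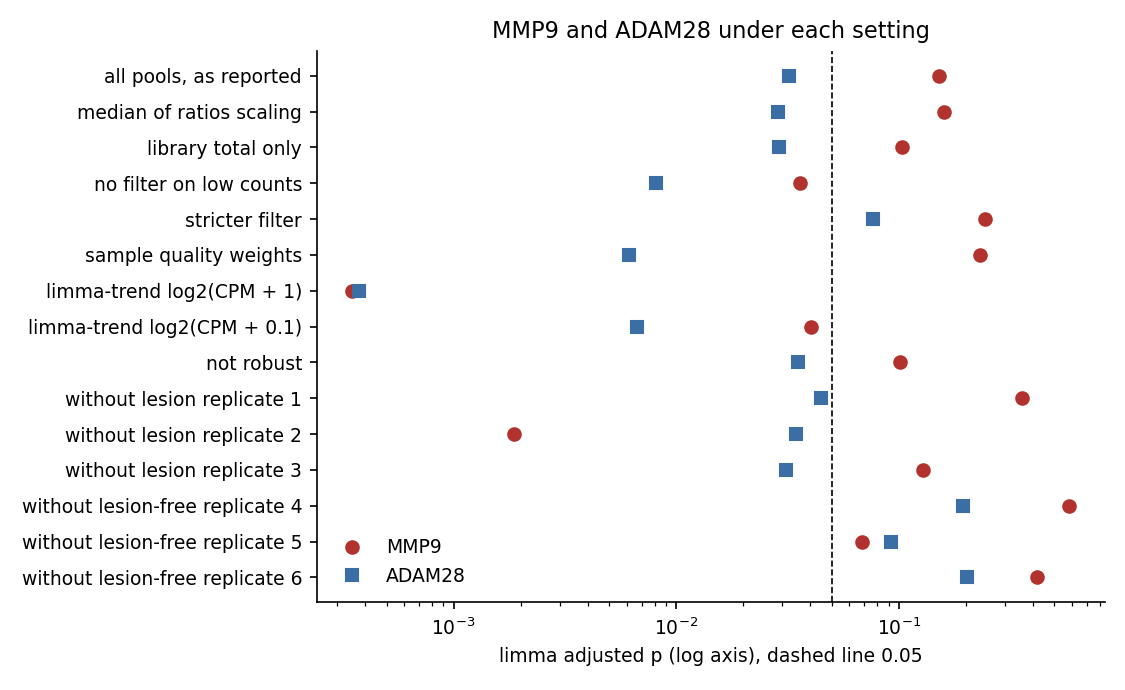
Limma adjusted p of MMP9 (red circles) and ADAM28 (blue squares) on a log axis, for the reported fit and each of the other settings listed on the vertical axis. The dashed line marks 0.05. ADAM28 is left of the line in 11 of 15 settings and MMP9 in 4 of 15.

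ADAMTS1, a secreted protease that cuts the proteoglycans versican and aggrecan, was measured at 119.6, 57.0 and 43.7 CPM in lesion replicates 1, 2 and 3. The lesion-free replicates 4, 5 and 6 had 151, 75.2 and 139 CPM. The groups overlapped through lesion replicate 1, which was above lesion-free replicate 5. Means were 73.4 ± 40.5 and 122 ± 40.6 CPM (SD, n = 3 each). The log2 fold was -0.87 (SE 0.37, 95% interval -1.67 to -0.07), with an unadjusted p of 0.0357 and a limma adjusted p of 0.423. Without lesion replicate 1 the log2 fold was -1.22, and without lesion replicate 3 it was -0.56.

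Of the inhibitors, TIMP1, a soluble inhibitor of most MMPs with high affinity for the MMP9 precursor, was measured at 87.5, 202 and 329.5 CPM in lesion replicates 1, 2 and 3. It was at 423, 273 and 300.3 CPM in lesion-free replicates 4, 5 and 6. Lesion replicate 1 was the lowest pool by a wide margin, and lesion replicate 3 lay within the lesion-free range. The log2 fold was -0.85 (SE 0.41, 95% interval -1.73 to 0.04, limma adjusted p = 0.488). Without lesion replicate 1 it was -0.33, and with sample quality weights it was -0.42. Without lesion replicate 3 it was -1.26 (unadjusted p = 0.0028, limma adjusted p = 0.131).

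TIMP3, the inhibitor that stays bound to the matrix and also blocks several ADAM and ADAMTS proteases, was measured at 25.4, 41.4 and 53.0 CPM in lesion replicates 1, 2 and 3. It was at 21.4, 64.3 and 82.7 CPM in lesion-free replicates 4, 5 and 6. The lesion-free pools spanned the whole lesion range, with replicate 4 the lowest pool of all. The log2 fold was -0.28 (SE 0.47, 95% interval -1.29 to 0.74, limma adjusted p = 0.869). Its sign turned to 0.13 without lesion-free replicate 6.

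TIMP4, an inhibitor known from heart and vessels, had 0, 2 and 4 counts in lesion replicates 1, 2 and 3 and 0, 23 and 0 in lesion-free replicates 4, 5 and 6. Its 29 counts thus came mostly from lesion-free replicate 5. The isoform table held 2 entries named TIMP4-201, of which 1 matched the counts of the gene and the other had 8 counts in lesion-free replicate 4 alone. Which entry a TIMP4 read went to is uncertain.

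**Figure D3:**
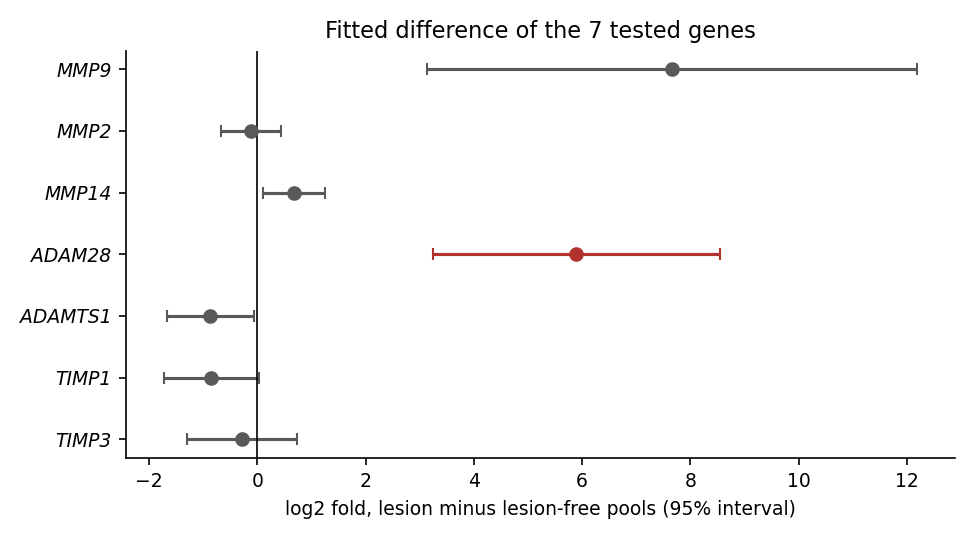
Fitted log2 fold of lesion minus lesion-free pools (horizontal axis) for each of the 7 tested genes, with the 95% interval of the limma fit. ADAM28, in red, is the gene with an adjusted p under 0.05. The interval of MMP9 runs from 3.14 to 12.19 and that of MMP2 from -0.67 to 0.43.

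The ratio of metalloprotease counts to TIMP counts within a pool does not depend on how libraries are scaled. These are ratios of RNA, paired by count level and not by which TIMP blocks which protease, and TIMP2 is not among them. Ratios were taken for the 3 metalloproteases and 2 TIMPs with at least 100 counts in every pool, which gives 6 ratios, chosen after the values were seen. Since counts were not divided by length, a ratio is compared between pools and says nothing of which protein is more abundant. MMP14 counts per TIMP1 count were 4.72, 1.68 and 1.40 in lesion replicates 1, 2 and 3 and 0.456, 0.992 and 0.997 in lesion-free replicates 4, 5 and 6. The groups did not overlap, and the difference of mean log2 ratios was 1.54. Its exact two-sided permutation p was 0.1, the smallest that 3 against 3 pools allow, or 0.6 adjusted over the 6 ratios. Lesion replicate 1 had the highest ratio, and without it the difference was 1.00.

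The other 5 ratios overlapped between groups. MMP2 per TIMP1 was 5.62, 2.54 and 2.00 against 1.41, 2.05 and 2.11, with lesion replicate 1 the highest. For MMP14 per TIMP3 the values were 16.3, 8.19 and 8.67 against 8.99, 4.22 and 3.62, with lesion-free replicate 4 inside the lesion range. The differences of mean log2 ratios were 0.74 and 1.02, each with an exact permutation p of 0.3. Without lesion replicate 1 the MMP2 per TIMP1 difference was 0.30. MMP2 per TIMP3, ADAMTS1 per TIMP1 and ADAMTS1 per TIMP3 differed by 0.23, 0.06 and -0.46 on the log2 scale, with exact permutation p of 0.8, 0.9 and 0.6.

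Isoforms were then examined, since the table splits each gene into its annotated transcripts. TIMP1 was the one gene of the 9 with more than 1 tested isoform. The isoform TIMP1-002 took 100% of the TIMP1 isoform counts in lesion replicate 1, 88.0% in replicate 2 and 77.4% in replicate 3. In lesion-free replicates 4, 5 and 6 its share was 72.7%, 95.5% and 87.9%. TIMP1-001 took nearly all the rest, and the shares overlapped between groups. TIMP1-001 had 0 of 455 counts in lesion replicate 1, which allows a share of up to 0.659%, against 272, 812, 1059, 102 and 358 counts in the other pools in order. The exact 95% binomial intervals of the TIMP1-001 share were 10.7 to 13.4% in lesion replicate 2 and 21.1 to 23.9% in lesion replicate 3. In lesion-free replicates 4 and 5 they were 25.6 to 28.4% and 3.66 to 5.40%. These intervals hold counting error only. Shares thus differed between pools of the same group beyond counting error, if the estimated isoform counts are taken as reads counted directly.

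Neither isoform passed the isoform-level test, in which 0.45% of 12666 isoforms were called. TIMP1-002 had a log2 fold of -0.79 (SE 0.36, limma adjusted p = 0.579) and TIMP1-001 one of -1.25 (SE 2.07, limma adjusted p = 0.884). The latter turned to 0.17 without lesion replicate 1. Isoform use of TIMP1 was not called by limma's diffSplice (Simes adjusted p = 0.919), which called 0.666% of 601 genes. How reads common to several isoforms were divided is not stated in the labels, and the table carries no error for that step.

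**Figure D4:**
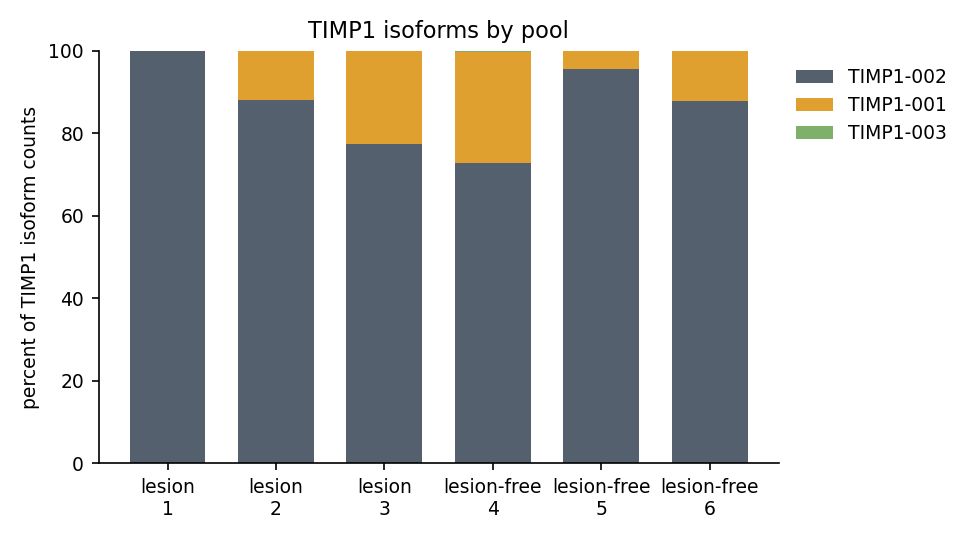
Share of each TIMP1 isoform in the TIMP1 isoform counts (percent, bars stacked to 100) by pool. TIMP1-002 ranges from 72.7% in lesion-free replicate 4 to 100% in lesion replicate 1, and TIMP1-003 is at most 0.306% and hardly visible.

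Other genes of the pathway were taken from 6 lists, of which 97 of 116 genes were matched and 65 tested. With limma 0 of the 65 were called, against 1.05% of all tested genes. At an unadjusted p under 0.05, 10 were higher and 2 lower, and the share of all tested genes at that level was 10.6%. In 13 of the 65 every lesion pool was above every lesion-free pool, and in 3 below, where all tested genes had shares of 10.5% and 8.97%.

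Among the other MMPs 6 of 14 matched genes were tested, with a median log2 fold of -0.27. MMP19, an MMP of the vessel wall and of myeloid cells, was measured at 37.3, 21.0 and 62.4 CPM in lesion replicates 1, 2 and 3 and at 14.4, 10.1 and 13.3 CPM in lesion-free replicates 4, 5 and 6 (limma adjusted p = 0.186). Like MMP9 it was lowest in lesion replicate 2 among lesion pools, and it passed without that pool (limma adjusted p = 0.0220). As stated for MMP9, leaving out the lowest lesion pool raises the lesion mean, and more genes were called higher in that fit. MMP15, a membrane-type MMP, had a log2 fold of -0.83 (limma adjusted p = 0.577). The collagenases MMP1 and MMP8, matrilysin MMP7, and MMP20 and MMP27 had 0 counts in all pools.

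The other ADAM genes, with 9 tested, had a median log2 fold of 0.38. ADAM12, a surface protease of mesenchymal cells, had 0, 2.95 and 9.76 CPM in lesion pools and 0, 0 and 1.02 CPM in lesion-free pools, and its groups overlapped (limma adjusted p = 0.577). ADAM9, a sheddase present in many cells, had a log2 fold of 0.49 (limma adjusted p = 0.584). Of the 16 tested ADAMTS and ADAMTS-like genes the median was 0.25. ADAMTSL4, a microfibril-binding protein without protease activity, was at 117, 154 and 114 CPM in lesion pools and at 253, 241 and 241 CPM in lesion-free pools (limma adjusted p = 0.1201). Its groups did not overlap. ADAMTSL3, another such protein, had a log2 fold of 1.23 (limma adjusted p = 0.382).

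The other zinc peptidases, with 10 tested, had a median log2 fold of 0.45. ACE, the angiotensin-converting enzyme, was at 47.1, 18.8 and 46.8 CPM in lesion pools and at 16.4, 9.94 and 12.5 CPM in lesion-free pools (limma adjusted p = 0.238). As with MMP9 and MMP19, lesion replicate 2 had the lowest level of the lesion pools, and without it ACE passed (limma adjusted p = 0.0278). ANPEP, aminopeptidase N, had a log2 fold of 1.02 (limma adjusted p = 0.2595).

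Of 12 tested inhibitors and clearance partners outside the TIMPs, the median was 0.09. SERPINE2, the serine protease inhibitor protease nexin-1, was at 163, 86.7 and 101 CPM in lesion pools and at 55.3, 45.0 and 32.8 CPM in lesion-free pools. It missed the threshold (log2 fold 1.36, SE 0.32, limma adjusted p = 0.0617). A2M, the plasma-type inhibitor that traps proteases of all classes, was at 2674, 1936 and 3622 CPM against 930.3, 1043 and 1405 CPM, and its groups did not overlap. Its log2 fold was 1.26 (SE 0.30, limma adjusted p = 0.0688). Both passed without lesion replicate 2, their lowest lesion pool (limma adjusted p = 0.0334 and 0.0331), and with library totals as the scaling. The activators and inducers, with 12 tested, had a median of 0.37. PLAU, the urokinase plasminogen activator, had a log2 fold of 1.39 (limma adjusted p = 0.191), and CD151, a tetraspanin, one of -0.84 (limma adjusted p = 0.261).

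**Figure D5:**
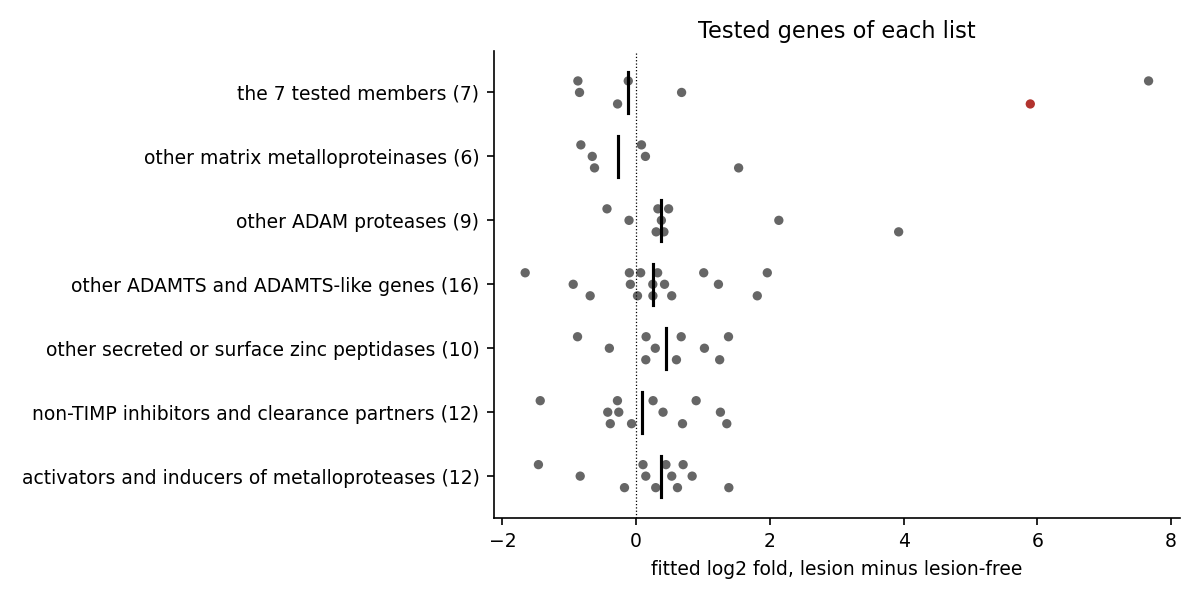
Fitted log2 fold of lesion minus lesion-free pools for each tested gene of the 7 described genes and of the 6 pathway lists, with the number tested in parentheses. Black bars are list medians, and ADAM28, in red, is the single gene with an adjusted p under 0.05.

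Markers of cell types that can make these enzymes moved with the groups in part. Of 12 tested macrophage markers 9 were called higher and 0 lower, against 0.968% and 0.0771% of all tested genes. The summed level of the 14 matched markers was 3447, 1543 and 3158 CPM in lesion replicates 1, 2 and 3 and 200.03 to 377 CPM in lesion-free pools. Lesion replicate 2 was thus the lowest lesion pool in this sum, but not in every marker. LYZ, at 1098, 201 and 946 CPM in lesion replicates 1, 2 and 3, and C1QC, at 731, 373 and 563 CPM, were lowest there. CSF1R, TREM2 and MRC1 had their lowest lesion level in lesion replicate 1, at 75.4, 8.27 and 0.384 CPM. MPEG1, a macrophage pore-forming protein, and C1QC, a complement chain, had the smallest p of the list. Their log2 folds were 3.08 and 3.02 (limma adjusted p = 0.000132 and 0.000169). MRC1, alone of the 12, had a log2 fold below 0, at -0.91 (limma adjusted p = 0.720). CD163 and MARCO, at few counts, were not tested. The part of macrophage number in the levels of MMP9 and ADAM28 was not tested.

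MMP9 is also stored in neutrophil granules. Of the 11 matched neutrophil markers, the granule genes MPO, PRTN3, AZU1, CAMP and MMP8 had 0 counts in all pools. Another 5 had counts in lesion pools alone, and all were at 0 in lesion replicate 1 and in the lesion-free pools, a set named after its values were seen. In lesion replicates 2 and 3, S100A12 had 0 and 98 counts, S100A9 15 and 1, ELANE 1 and 10, S100A8 0 and 9, and LTF 0 and 1. Lesion replicate 1, the shallowest pool, thus had 0 counts of these 10 genes. The listed markers CSF3R, CXCR1, CXCR2 and FCGR3B were not matched, so these counts do not show whether neutrophils were present. The part of neutrophils in MMP9 levels was not tested. The summed level of the 11 matched markers was 13.5 to 72.5 CPM in lesion pools and 23.8 to 99.6 CPM in lesion-free pools. Most of it came from LCN2, a lipocalin that other cells also make. LCN2 was the single tested marker of this list, with a log2 fold of -0.39 (limma adjusted p = 0.874). ADAM28 is known from B cells, of which MS4A1 and PAX5 had 0 counts in all pools. The 10 matched B and plasma cell markers summed to 3.08 to 8.93 CPM in lesion pools and 0.711 to 7.76 CPM in lesion-free pools. The 12 T cell markers summed to 12.6 to 19.2 CPM against 2.28 to 8.73 CPM, with 0 of 5 tested called by limma, 0 at an unadjusted p under 0.05, and CD28 at 0 in all pools. The log2 fold was above 0 in all 5 (median 1.86, range 0.82 to 3.92), but the groups overlapped in each.

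Of 11 tested contractile smooth muscle markers, 2 were called lower and 0 higher, against 0.0771% and 0.968% of all tested genes. These were CNN1 (calponin) and DES (desmin), with log2 folds of -1.36 and -1.35 (limma adjusted p = 0.0251 and 0.0468). In 7 of the 11 every lesion pool lay below every lesion-free pool, as it did in 8.97% of all tested genes. CALD1, MYLK, SYNPO2 and ACTG2 overlapped, with log2 folds of 0.23, -0.05, -0.29 and -0.97. Lesion replicate 1, the lowest pool for TIMP1, also had the lowest smooth muscle sum, at 47114 CPM. It had the lowest fibroblast sum as well, at 1484 CPM, against 2148 and 1927 CPM in lesion replicates 2 and 3 and 1931 to 2477 CPM in lesion-free pools. TIMP3 was instead lowest in lesion-free replicate 4, at 21.4 CPM, the pool with the highest smooth muscle sum, at 115675 CPM. ADAMTS1, at 119.6 CPM in lesion replicate 1, was highest there among the lesion pools. None of 11 tested fibroblast, 10 endothelial, 3 adipocyte and 3 mast cell markers was called by limma, with 3, 3, 0 and 0 of them at an unadjusted p under 0.05, a level that 10.6% of all tested genes reached. The log2 fold was below 0 in 8 of the 11 fibroblast markers and above 0 in 9 of the 10 endothelial markers, where the median of all tested genes was -0.0022. The part of these cell types in TIMP1, TIMP3 and ADAMTS1 levels was not tested.

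The genes most like MMP9 and ADAM28 in pattern were sought among 7814 tested genes with a symbol and a mean log2 CPM of at least 1. Likeness was the root mean square difference between log2 CPM profiles over 6 pools, each centred on its own mean, and it is a description. For MMP9 the nearest were CH242-305H5.1 (0.81), NKG7 (0.98), a granule protein of cytotoxic lymphocytes, and PLTP (1.04), the phospholipid transfer protein. NKG7 had 276, 205 and 616 counts in lesion replicates 1, 2 and 3 and 21, 0 and 18 in lesion-free pools. Like MMP9, all 3 had 0 counts in lesion-free replicate 5, a value that entered their choice by likeness. For ADAM28 they were FCGR1A (0.54), the high-affinity IgG receptor of myeloid cells, PigE-108A11.6 (0.70) and KIAA1598 (0.79). FCGR1A had 99, 151 and 222 counts in lesion replicates 1, 2 and 3 and 21, 0 and 3 in lesion-free replicates 4, 5 and 6. None of these 6 genes was called, with limma adjusted p from 0.163 to 0.2502.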

How the data were processed

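RNA of 6 pools was measured by RNA sequencing. The library kit was for stranded total RNA, per the labels' protocols. The authors deposited whole-number counts per gene and per isoform, and the submitters' processing notes name RSEM 1.3.0 and edgeR without a stated role. No aligner is named, and the build is not given in the sources used here. Values from 1000 on carried commas, which were removed. As deposited, with commas, the columns were not recorded as plain counts. Limma 3.58.1 (R 4.3.3) with voom weights and robust empirical Bayes was used in place of a count model. No count model was run on the whole numbers left after the commas were removed.

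Genes were tested where they reached 1 CPM (10 counts in a library of median size) in 3 or more pools and a total of 15 counts, which left 11673. Scaling used the trimmed mean of M values (30% of M, 5% of A). P-values are two-sided and Benjamini-Hochberg adjusted over all tested genes or isoforms. The script was tested on simulated data. Within-group chi-square per degree of freedom was 23.2 to 103, so the counts of any 2 pools of a group differed beyond sampling noise. This does not show whether pools shared animals.

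Members and lists were chosen with earlier results of these data known. All members are named, with the 2 genes of smallest p of each pathway list. From marker lists come those of smallest p or at 0 counts. Symbols were matched in the table, or by identifier in a table of names (13 of the 97 pathway genes). Alternatives were other scalings, filters, weights and pseudocounts, and leaving out each pool. No sequence is shown.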

Additional observations from a re-analysis of the deposited data

How the results depend on the processing

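No paired analysis was possible because the pools of the 2 groups share no replicate number. The reported fit called 113 genes higher and 9 lower. These became 171 and 17 with no filter on low counts, 213 and 40 with sample quality weights, and 202 and 14 with limma-trend on log2(CPM + 1). Leaving out 1 pool gave 54 to 150 higher and 3 to 36 lower. Of the 7 tested metalloproteases and TIMPs, 1 was called higher. This became 2 with no filter or with limma-trend on log2(CPM + 1) or log2(CPM + 0.1), 0 with the filter at 10 times the minimum, and 0 to 2 without 1 pool. MMP9 was the added call (limma adjusted p = 0.0361, 0.000351 and 0.0402), and ADAM28 the lost one (limma adjusted p = 0.0764). None was called lower in any setting. Of the pathway genes, 0 were called, against 2 higher with library totals (SERPINE2 and A2M) and 1 higher (SERPINE2) and 1 lower (ADAMTSL4) with sample quality weights. Without 1 pool there were 0 to 4 higher, the 4 being MMP19, ACE, SERPINE2 and A2M without lesion replicate 2. Each of the 4 had its lowest lesion level in that pool. Library totals shifted the median log2 fold of all genes from -0.0022 to 0.16, and MMP2 from -0.12 to 0.056. Without 1 pool, the log2 fold of TIMP3 ran from -0.86 to 0.13 and that of TIMP1-001 from -3.46 to 0.17. The log2 ratio difference ran from -0.88 to 0.80 for ADAMTS1 per TIMP1, -1.17 to 0.32 for ADAMTS1 per TIMP3, -0.11 to 0.82 for MMP2 per TIMP3, 1.00 to 1.88 for MMP14 per TIMP1 and 0.30 to 1.05 for MMP2 per TIMP1. The Simes adjusted p of TIMP1 isoform use ran from 0.807 to 0.996. The cause of these shifts was not tested. Depth limits MMP12, TIMP4 and the lesion-free levels of MMP9 and ADAM28.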

Other observations

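MMP9 is also abundant in osteoclasts, the bone-resorbing cells of the macrophage lineage. Of 9 matched osteoclast-type markers 5 were tested and 0 called by limma. At an unadjusted p under 0.05 there were 3, a level that 10.6% of all tested genes reached. The genes named next were chosen after their values were seen. ATP6V0D2, a proton pump subunit, had 12, 62 and 137 counts in lesion replicates 1, 2 and 3 and 0 in each lesion-free pool (limma adjusted p = 0.112). CALCR, the calcitonin receptor, had 238, 122 and 214 counts in the lesion pools and 16, 29 and 11 in lesion-free replicates 4, 5 and 6 (limma adjusted p = 0.211). DCSTAMP, a fusion protein of such cells, had 0, 7 and 25 counts in lesion pools and 0 in the lesion-free pools, and OCSTAMP and SIGLEC15 had 0 in all. TNFRSF11A had 0, 62 and 17 counts in lesion pools and 28, 24 and 44 in lesion-free pools. Its log2 fold of -1.31 (limma adjusted p = 0.760) was the one below 0 among the 5 tested, and its groups overlapped. NFATC1 also overlapped between groups (log2 fold 0.62, limma adjusted p = 0.628). The summed level of the list was 291 to 404 CPM in lesion pools and 180.4 to 249.5 CPM in lesion-free pools, largely from CTSK, the collagen-cutting cathepsin K.

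Chromosomal neighbours were taken as the 4 genes on each side with an entry in the table, in the RefSeq order of Sscrofa11.1, a choice made after the values were seen. For MMP9, 6 of 8 neighbours were tested and 0 called by limma. PLTP, with 2 annotated genes between it and MMP9, had 160, 243 and 640 counts in lesion replicates 1, 2 and 3 and 17, 0 and 14 in lesion-free replicates 4, 5 and 6 (log2 fold 5.87, limma adjusted p = 0.163). For the genes between them every lesion pool lay below every lesion-free pool, as it did in 8.97% of all tested genes. ZNF335 and PCIF1 had log2 folds of -0.84 and -0.49 (limma adjusted p = 0.564 and 0.523). CD40, a costimulatory receptor on the other side, had a log2 fold of 0.81 (limma adjusted p = 0.464). For ADAM28, 3 of 8 neighbours were tested and 0 called by limma. Its relatives ADAMDEC1 and ADAM7, next to it in the annotation, had 10 counts in lesion replicate 3 alone and 17 and 7 counts in lesion-free replicates 5 and 6, respectively.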
